A study of Mus musculus with 189 samples.

Results

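The genes described are Kit and 9 genes for cytokine receptor chains, Il1rl1, Il3ra, Csf2rb, Csf2rb2, Il4ra, Il9r, Il2rg, Il18r1 and Il6ra. They were taken by symbol from a table of 46078 genes, and each symbol matched a single row. Peritoneal cells of 4 female mice of strain C57BL/6 were used. The animals' age is not given in the sources used here, and the labels name no transgene, deletion or treatment. Both groups were sorted from live cells without lineage markers that carried c-Kit and the IgE receptor FcεRI on their surface. The 94 mature mast cells were integrin β7 low with high side scatter, and the 95 basophil-mast cell progenitors (BMCPs), named as precursors of both lineages, were integrin β7 high with low side scatter. Because the gate required c-Kit protein, the presence of Kit RNA in the sorted cells was partly set by the sort.

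Cytokine receptors carry growth and survival signals into mast cells and basophils. Kit is a tyrosine kinase that binds stem cell factor, the main survival factor of tissue mast cells. The receptors for IL-3, GM-CSF and IL-5 each pair their own alpha chain with the common beta chain Csf2rb. Mice also carry Csf2rb2, a second beta chain that serves IL-3 alone. Il2rg is the common gamma chain, which pairs with Il4ra for IL-4 and with Il9r for IL-9. Il1rl1 (ST2) is the receptor of IL-33 and pairs with Il1rap, and Il18r1 pairs with Il18rap. Il6ra binds IL-6 and needs Il6st (gp130) in the membrane to signal. The beta and gamma chain receptors and Il6st act through Janus kinases and STAT proteins, and the IL-1 family receptors through Myd88 and NF-κB.

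Csf2rb and Csf2rb2 are neighbours on chromosome 15 with closely related sequences, so their coding sequences are shown first, at the longest stretch they share. The shared run was 242 bases long, which exceeds the 50-base reads. Both stretches, from GENCODE transcripts on GRCm38, cover coding positions 2054 to 2353 counted from the A of the start codon, in the last of 14 exons. That of Csf2rb lies at chr15:78348548-78348847 on the plus strand and that of Csf2rb2 at chr15:78284601-78284900 on the minus strand. Capitals mark the 5 of 300 bases at which the pair differ.
Csf2rb: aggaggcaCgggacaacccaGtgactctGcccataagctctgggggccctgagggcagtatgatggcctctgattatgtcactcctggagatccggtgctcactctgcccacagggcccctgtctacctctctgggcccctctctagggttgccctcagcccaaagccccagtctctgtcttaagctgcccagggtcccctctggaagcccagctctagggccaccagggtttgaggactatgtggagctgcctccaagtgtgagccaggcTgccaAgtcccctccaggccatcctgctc
Csf2rb2: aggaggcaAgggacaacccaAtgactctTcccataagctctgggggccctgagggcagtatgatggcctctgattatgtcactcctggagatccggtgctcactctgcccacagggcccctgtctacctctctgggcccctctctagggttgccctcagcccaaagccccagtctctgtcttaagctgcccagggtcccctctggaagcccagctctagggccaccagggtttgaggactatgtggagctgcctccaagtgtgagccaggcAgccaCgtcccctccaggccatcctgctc
Of the 50-base words in the coding sequence, 687 were found in both genes, which is 26% of those of Csf2rb and 26.6% of those of Csf2rb2. Over all annotated transcripts the shares were 12.27% and 18.44%. The remaining words told the genes apart, and how the submitters' counting treated reads from the shared words is not given in the sources used here.

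RefSeq promoter windows (GRCm38.p6) matched 9 of the 10 genes, and 3 windows of 250 bases upstream of a start site are shown. They were chosen after the values were seen. Csf2rb2 and Il6ra are shown because they differed most between the groups in opposite directions among the genes with clear levels and a window, and Il1rl1 because its window held most GATA matches. Capitals mark GATA on either strand, the letters bound by GATA factors such as Gata2, and TTCNNNGAA, the letters bound by STAT proteins. These 2 motifs do not overlap here.
Csf2rb2, chr15:78305722-78305971, minus strand: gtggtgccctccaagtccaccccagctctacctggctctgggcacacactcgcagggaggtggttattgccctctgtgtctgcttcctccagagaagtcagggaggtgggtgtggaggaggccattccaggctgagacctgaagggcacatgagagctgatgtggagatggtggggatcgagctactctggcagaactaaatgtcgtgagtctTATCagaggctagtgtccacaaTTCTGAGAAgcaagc
Il6ra, chr3:89913197-89913446, minus strand: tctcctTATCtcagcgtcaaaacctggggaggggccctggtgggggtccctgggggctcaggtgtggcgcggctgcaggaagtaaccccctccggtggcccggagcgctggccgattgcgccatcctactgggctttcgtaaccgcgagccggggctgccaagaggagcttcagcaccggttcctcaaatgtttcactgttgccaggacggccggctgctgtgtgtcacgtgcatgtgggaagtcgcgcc
Il1rl1, chr1:40429320-40429569, plus strand: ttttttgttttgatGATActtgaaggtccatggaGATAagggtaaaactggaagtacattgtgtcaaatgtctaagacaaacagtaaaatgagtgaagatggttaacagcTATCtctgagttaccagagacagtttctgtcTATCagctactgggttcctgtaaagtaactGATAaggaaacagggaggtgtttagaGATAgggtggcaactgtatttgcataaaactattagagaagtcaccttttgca
GATA was present in 53.6% and TTCNNNGAA in 7.02% of 32851 mouse windows of this length. Csf2rb2 held 1 match of each, Il6ra held 1 GATA, and Il1rl1 held 6 GATA, a number reached by 0.338% of windows. A second Il1rl1 window at an inner start site held 2. The window with 6 was picked for that count and had 37.6% G and C, against 56.4% for Csf2rb2 and 65.2% for Il6ra. The share of all windows was not matched for base content.

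Gene reads per cell had a median of 1255267 (561600 to 2152221) in the 94 mature mast cells and 1247890 (344022 to 2091665) in the 93 BMCPs kept. BMCP numbers 6 and 93 had fewer than 100000 reads and were left out. No cell can be assigned to a mouse, so each group is 1 pooled sample and the differences have no replicate check. Levels are CPM (reads of a gene after scaling the gene reads of a group to 1e6), pooled over the cells of a group, with exact Poisson 95% intervals. Shares of cells have exact Clopper-Pearson 95% intervals. Where a count was 0, no interval is given but the level or share that 3 reads or 3 cells would make up. Intervals and limits cover counting error only, since PCR copies were counted as reads.

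Some libraries went against their label. BMCP numbers 46 and 80 had 1.47 and 3.51 CPM of Kit and 113 and 160 CPM of the mast cell protease Cpa3. They carried Cd74, an antigen presentation gene, at 49765 and 43636 CPM, and held 63.1% and 27.74% of the BMCP reads of a list of 6 B cell genes. The summed level of that list had a median of 103.9 CPM in mature cells (0 to 1355) and 3.19 CPM in BMCPs (0 to 71090). The sum of 4 basophil genes had medians of 934 and 1430 CPM, but its genes went different ways. Pooled levels in mature cells and BMCPs were 30.2 and 3294 CPM for Mcpt8 and 3.83 and 40.5 CPM for Itga2. For Prss34 they were 2899 and 1580 CPM, and for Cd200r3 557 and 345 CPM. The sums of the macrophage, T cell, natural killer, innate lymphoid, eosinophil, neutrophil and erythroid lists had medians of 0 in both groups, with the highest cells at 2041 CPM of the T cell list (mature cell 65) and, for innate lymphoid genes, at 580 CPM (BMCP 23). The part of these genes in the results was not tested. Cd3e, Adgre1, Csf1r and Ncr1 had 0 reads in all kept cells, but other genes of their lists were read in some. Cd4 had 2679 reads in 4 mature cells and 4670 in 11 BMCPs. Lyz2 had 412 reads in 3 mature cells. In BMCPs, Lck had 858 reads in 3 cells, Cd68 had 298 in 3 and Prf1 had 119 in 1. BMCP number 55 had 11033 CPM of Cpa3 and 54905 CPM of the chymase Cma1 but 7.44 CPM of Fcer1a and 8.497 CPM of Gata2, with 3.89% of its reads from the ERCC spike-in RNA. Results that BMCPs 46 and 80 moved past or short of 2-fold are given with and without them. Reads of Gzmb, a granzyme gene, were found in 89 of the 94 mature cells but never above 15.9 CPM, while 60 of 93 BMCPs held at least 100 CPM. Cells with at least 100 CPM are therefore counted apart from cells with a read.

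Between the groups, 3 receptor genes were at least 2-fold higher in BMCPs, 1 was at least 2-fold higher in mature mast cells (mature cells), and Kit, Il1rl1, Il2rg, Il3ra and Il4ra differed by less. Il18r1 stayed below the minimum of 5 CPM in either group. The 3 genes higher in BMCPs were Csf2rb, Csf2rb2 and Il9r, or 33.3% of the 9 receptor genes that passed the minimum, against 19.2% of the 10556 genes that passed it. The single gene higher in mature cells was Il6ra, or 11.1%, against 9.9% of all genes. In either direction 29.1% of all genes differed by at least 2-fold. With 9 genes these shares lie near the background and are not a result about the set. The median log2 ratio of mature over BMCP, each with 1 CPM added, was -0.47 for the 9 receptor genes and -0.25 for all genes.

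**Figure D1:**
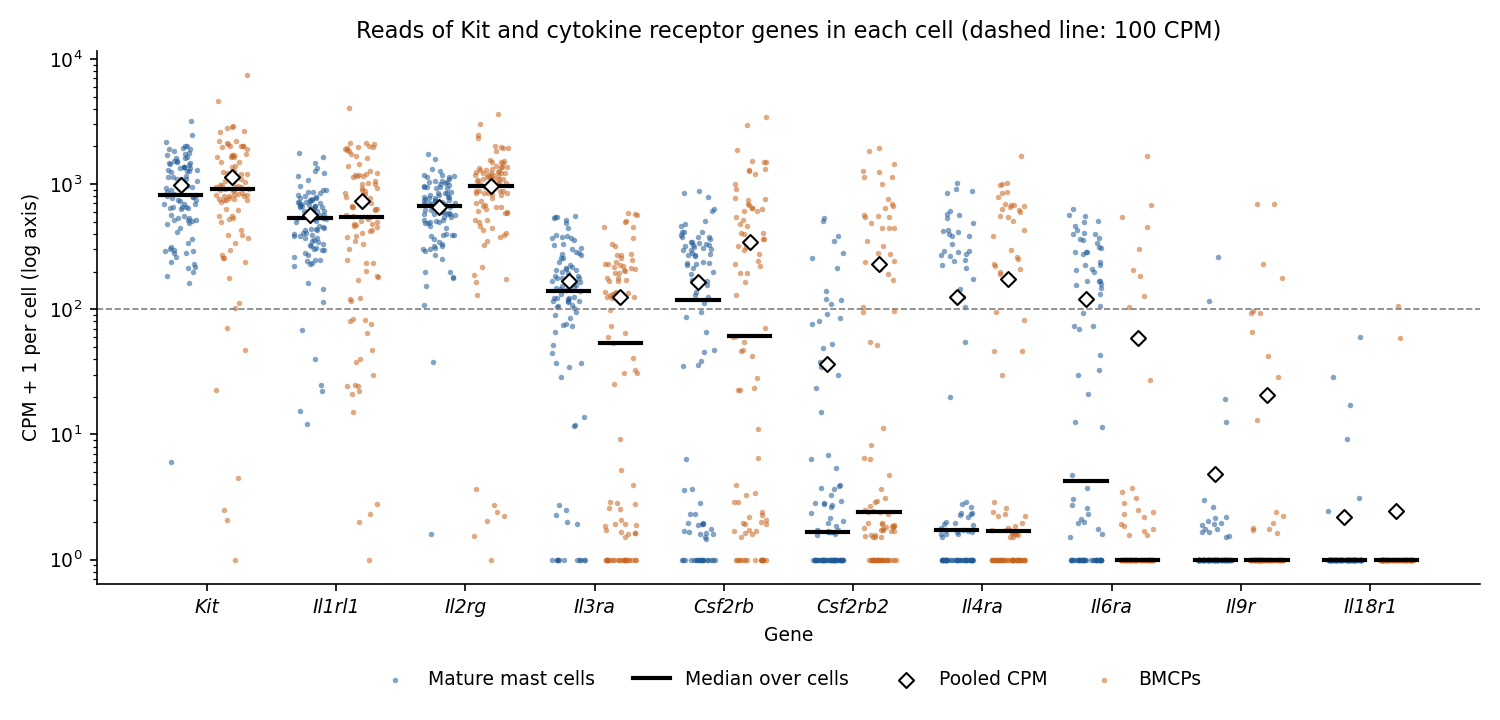
CPM in each cell on a log scale (CPM + 1), with a column of points for mature cells and one for BMCPs at each gene, a bar at the median and a diamond at the pooled level. The dashed line is at 100 CPM. Kit, Il1rl1 and Il2rg fill nearly every cell, with medians of 822, 530 and 669 CPM in mature cells, whereas Csf2rb2, Il4ra and Il6ra have medians between 0 and 3.25 CPM and reach 100 CPM in a minority of cells.

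Kit (ENSMUSG00000005672; GRCm38 chr5:75574916-75656722, plus strand) was read in all 94 mature cells and in 92 of 93 BMCPs. In mature cells its level was lowest at 5.07 CPM, had a median of 822 and was highest at 3207. In BMCPs it ran from 0 through a median of 919 to 7431 CPM. The groups overlapped over nearly their whole range, with 2 BMCPs above the highest mature cell. Levels of at least 100 CPM were found in 93 mature cells (98.9%, 94.2 to 99.97) and in 86 BMCPs (92.5%, 85.1 to 96.9). The pooled level was 979.9 CPM (974 to 986) in mature cells and 1144 CPM (1138 to 1150.1) among BMCPs, which gave a log2 ratio of -0.22. That ratio lay 0.03 from the median of all genes, and its sign turned to 0.02 with TMM scaling and to 0.69 with ERCC scaling.

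The cells with little Kit RNA fell into different kinds. BMCPs 46 and 80 had little Kit and few mast cell reads. BMCP number 55 had 1.06 CPM of Kit, 28.7 CPM of Il1rl1 and 0 CPM of Il2rg. BMCP number 23 had 0 CPM of Kit with 36354 CPM of Cpa3, 8058 CPM of Cma1 and 3527 CPM of Fcer1a, the IgE-binding chain of FcεRI. It held Mcpt8, a basophil protease gene, at 17249 CPM. It also had 567 CPM of Il1rl1, 613 of Csf2rb and 844 of Il2rg. BMCP numbers 21, 78 and 95 had 69.3, 46.2 and 21.8 CPM of Kit, and Fcer1a between 3032 and 3302 CPM. The only mature cell below 100 CPM was number 94, with 5.07 CPM of Kit, 69559 CPM of Cpa3 and 4086 of Fcer1a. In BMCP 23 and mature cell 94, Kit RNA was at or near 0 while Fcer1a was high.

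Il1rl1 (ENSMUSG00000026069; chr1:40429570-40465415, plus strand), the IL-33 receptor, was read in all mature cells and in 92 BMCPs. The lowest, median and highest cells had 11, 530 and 1757 CPM in mature cells and 0, 548 and 4083 CPM in BMCPs. The medians were close and the BMCPs were spread more widely. Their quartiles were 179 and 1137 CPM, against 325 and 719 in mature cells, and 11 BMCPs lay above the highest mature cell. Cells at 100 CPM or more were 88 of 94 mature cells (93.6%, 86.6 to 97.6) and 74 of 93 BMCPs (79.6%, 69.95 to 87.2). Pooled levels were 561 CPM (557 to 566) and 731 CPM (726 to 736), a log2 ratio of -0.38. Under ERCC scaling the ratio was 0.53, where the median of all genes was 0.68.

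Il1rap, the chain that Il1rl1 needs for signalling, was scarce. It had 13.97 CPM in mature cells and 20.8 CPM in BMCPs, with at least 100 CPM in 4 and 3 cells. Il1rl1 and Il1rap reached that level together in 4 mature cells and 2 BMCPs. A single BMCP, number 24, held 51.59% of the Il1rap reads of its group.

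Il18r1 (ENSMUSG00000026070; chr1:40465552-40500854, plus strand) starts just beyond the end of Il1rl1 but was nearly absent. It had 142 reads in 6 mature cells, or 1.19 CPM (1.01 to 1.41), and 172 reads in 2 BMCPs, or 1.44 CPM (1.23 to 1.67). BMCP number 31 held 65.12% of the latter, and without it the log2 ratio of -0.15 became 0.54. The partner Il18rap had 0 reads in both groups, for which the limit of 3 reads is 0.0252 CPM in mature cells and 0.0251 in BMCPs. The other genes of this cluster on chromosome 1 differed from Il1rl1. Il1r2, a decoy receptor for IL-1, had 2 reads in mature cells and 5642 in BMCPs (47.2 CPM), spread over 13 cells of which number 54 held 2577 reads. Il1r1, the signalling receptor for IL-1, had 246 reads in 4 mature cells and 1 read in BMCPs. Il1rl2 had 0 reads in both.

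Il3ra (ENSMUSG00000068758; chr14:14346275-14356011, plus strand), the IL-3 alpha chain, was found in more mature cells than BMCPs. The median cell had 139.5 CPM among mature cells and 52.4 CPM among BMCPs, both groups began at 0, and the highest cells had 557 and 585 CPM. At least 100 CPM was found in 62 of 94 mature cells (65.96%, 55.5 to 75.4) and 42 of 93 BMCPs (45.2%, 34.8 to 55.8). Among the cells past 100 CPM the medians were 195 and 215 CPM. The pooled level was 167 CPM (165 to 169) against 123 CPM (121 to 125), a log2 ratio of 0.44, or 0.69 above the median of all genes. It passed 2-fold with ERCC scaling (1.35) and by the median over cells (1.40).

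Csf2rb (ENSMUSG00000071713; chr15:78325752-78353847, plus strand), the shared beta chain, was carried by similar numbers of cells but at higher levels in some BMCPs. Lowest, median and highest cells were at 0, 118 and 886 CPM in mature cells and at 0, 60.1 and 3420 CPM in BMCPs. A level of 100 CPM was reached in 48 mature cells (51.1%, 40.5 to 61.5) and 45 BMCPs (48.4%, 37.9 to 58.99). Levels of 500 CPM or more were found in 6 mature cells and 24 BMCPs, and 12 BMCPs exceeded every mature cell. The pooled level was 163 CPM (160.5 to 165) in mature cells and 344 CPM (341 to 347) in BMCPs, 2.11 times higher, with a log2 ratio of -1.08. The ratio fell short of 2-fold without BMCP number 2 (-0.96), in the block of higher cell numbers (-0.94), with TMM scaling (-0.83), with totals without granule genes (-0.87) and with ERCC scaling (-0.17). By the median over cells the direction turned, to 0.96.

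Csf2rb2 (ENSMUSG00000071714; chr15:78282507-78305721, minus strand), the beta chain for IL-3 alone, differed most of the receptor genes with clear levels in several cells. Lowest, median and highest cells were at 0, 0.65 and 535 CPM in mature cells and at 0, 1.41 and 1935 CPM in BMCPs. Most cells of both groups were thus near 0. Levels of at least 100 CPM were found in 11 mature cells (11.7%, 5.99 to 19.97) and 30 BMCPs (32.3%, 22.9 to 42.8), and 16 BMCPs exceeded the highest mature cell. The pooled level was 35.2 CPM (34.1 to 36.3) against 228 CPM (225.5 to 231), 6.49 times higher in BMCPs. The log2 ratio of -2.66 lay between -2.85 and -2.51 when any single cell was left out, and was -0.54 by the median over cells.

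In single cells the beta chain RNAs were often unequal. Among cells with at least 50 reads of the pair, 61 mature cells and 63 BMCPs, Csf2rb2 made up over 90% of the reads in 6 and 12 cells and under 10% in 42 and 31 cells. The other 13 and 20 cells held a mixture. Csf2rb2 took 17.77% of the pooled reads of the pair in mature cells and 39.87% in BMCPs. Cells with reads of nearly a single gene occurred in both groups although the genes share the stretch printed above.

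**Figure D2:**
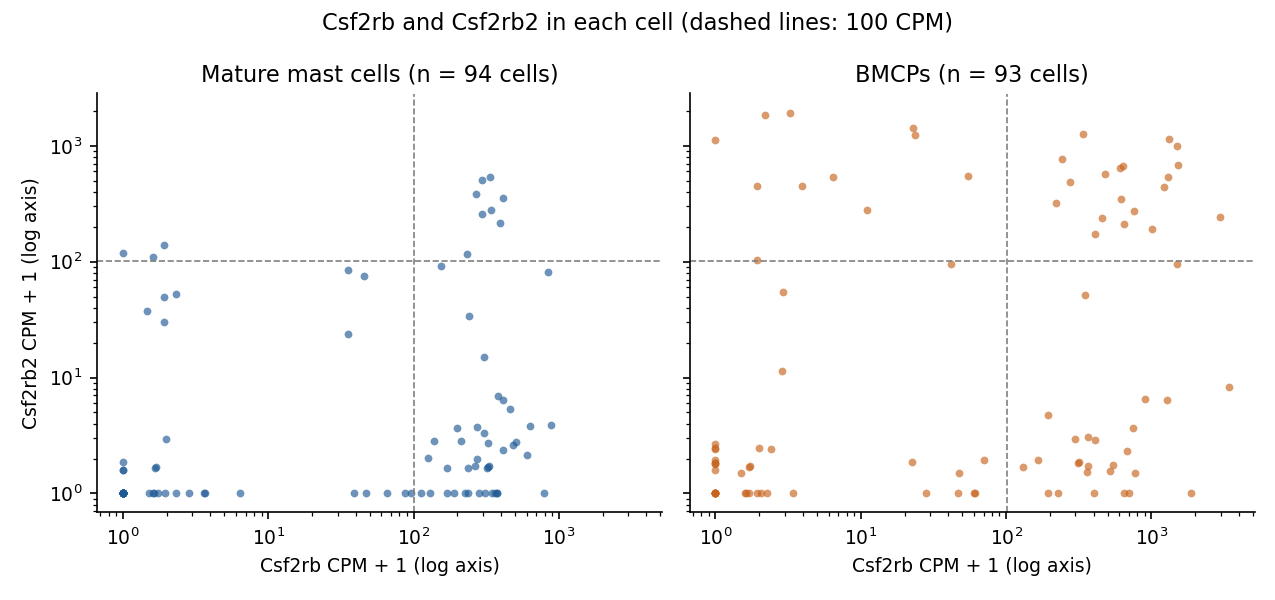
Csf2rb (x axis) and Csf2rb2 (y axis) in each cell, both in CPM + 1 on log scales, with 1 point a cell, mature cells on the left and BMCPs on the right, and dashed lines at 100 CPM. At 100 CPM or more of both genes there are 8 mature cells and 19 BMCPs, and the cells with the highest levels of either gene are BMCPs.

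The neighbours of this pair on chromosome 15 are Ncf4, a subunit of the phagocyte NADPH oxidase, and Tex33. Ncf4 had 26.4 CPM in mature cells and 83.8 CPM in BMCPs, which gave a log2 ratio of -1.63, with at least 100 CPM in 9 and 20 cells. Tex33 had 0 reads. The GM-CSF alpha chain Csf2ra, which uses Csf2rb, had 24.2 and 55.6 CPM and a log2 ratio of -1.17, or -0.90 without BMCP number 52. At least 100 CPM of Csf2ra together with either beta chain was found in 6 mature cells and 13 BMCPs.

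Il2rg (ENSMUSG00000031304; chrX:101264378-101268255, minus strand), the common gamma chain, was nearly as widespread as Kit. Lowest, median and highest cells were at 0.61, 669 and 1728 CPM in mature cells and at 0, 966 and 3606 CPM in BMCPs. Cells at 100 CPM or more were 92 mature cells (97.9%, 92.5 to 99.7) and 86 BMCPs (92.5%, 85.1 to 96.9). The 2 wells rich in B cell genes also held it, at 886 and 995 CPM, and the only BMCP at 0 was number 55. Pooled levels were 658 CPM (653 to 662) and 956 CPM (950.03 to 961), a log2 ratio of -0.54, which became 0.37 under ERCC scaling. Relative to the median of all genes it was -0.29 and -0.30 under these scalings. Of the 50-base words of Il2rg, 27.52% also belong to the overlapping gene model Gm20489, which had 0 reads. The overlap was 8.44% for Il4ra with Gm44876 and 2.287% for Il6ra with Gm42809, which had 31 and 1 reads in the groups.

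Il4ra (ENSMUSG00000030748; chr7:125552120-125579474, plus strand), the IL-4 alpha chain, was present in about as many cells of each group. The median cell was at 0.72 CPM in mature cells and 0.70 in BMCPs, the lowest were at 0, and the highest were at 1009 and 1661 CPM. At least 100 CPM was found in 31 mature cells (32.98%, 23.6 to 43.4) and 28 BMCPs (30.1%, 21.03 to 40.5). At 500 CPM or more there were 8 and 18 cells. The pooled levels were 125 CPM (123 to 127) and 172 CPM (170.04 to 175), a log2 ratio of -0.47, or -0.22 relative to all genes. Its sign turned with ERCC scaling (0.44) and by the median over cells (0.02).

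Il9r (ENSMUSG00000020279; chr11:32187541-32200279, minus strand), the IL-9 alpha chain, was restricted to few cells. The median was 0 in both groups. A level of 100 CPM was reached in 2 mature cells, numbers 22 and 65 with 258 and 115 CPM, and in 4 BMCPs. The BMCPs were numbers 2, 23, 36 and 80, with 697, 230, 177 and 694 CPM. The last is one of the wells rich in B cell genes. Mature cell 65 was highest for the T cell list, of which only Cd4 had reads in mature cells. BMCP 23 was highest for the innate lymphoid list but had 36354 CPM of Cpa3 and 3527 CPM of Fcer1a. Pooled levels were 3.86 CPM (3.52 to 4.23) and 19.6 CPM (18.8 to 20.4), a log2 ratio of -2.08. The value rested on single cells: it was -2.94 without mature cell 22, -1.52 without BMCP 2, and -1.72 without BMCPs 46 and 80, with 3 of 91 BMCPs past 100 CPM.

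Il6ra (ENSMUSG00000027947; chr3:89864059-89913196, minus strand), the IL-6 alpha chain, was the only one of the 10 at least 2-fold higher in mature cells. Lowest, median and highest cells were at 0, 3.25 and 625 CPM in mature cells and at 0, 0 and 1670 CPM in BMCPs. Levels of at least 100 CPM were found in 36 of 94 mature cells (38.3%, 28.5 to 48.9) and 9 of 93 BMCPs (9.68%, 4.52 to 17.6). A read was found in 58 and 24 cells, and in 44 and 10 cells after each was thinned to 100000 reads. Pooled levels were 119.9 CPM (118 to 122) and 57.96 CPM (56.6 to 59.3), a log2 ratio of 1.04. BMCP number 46, rich in B cell genes, held 49.19% of the BMCP reads. Without it the ratio was 1.96, and without BMCPs 46 and 80 it was 1.95, with 30.2 CPM and 8 of 91 BMCPs past 100 CPM. Without mature cell 51 the ratio was 0.96 and with 5 CPM added 0.99, both below 2-fold. The block of lower cell numbers, which holds BMCP 46, gave 0.44 and the block of higher numbers 1.96.

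The partner chain Il6st had 46 reads in mature cells (0.39 CPM) and 3 in BMCPs (0.025 CPM), and no cell reached 100 CPM. For such a count of 0 the limit of 3 cells is 3.19% of 94 mature cells and 3.23% of 93 BMCPs. The ligand gene Il6 differed between the groups in the direction opposite to its receptor. It had 4.54 CPM in mature cells and 103.7 CPM in BMCPs, with at least 100 CPM in 2 and 19 cells. None of these 19 BMCPs was among the 9 with at least 100 CPM of Il6ra. With 19 and 9 of 93 cells, little overlap would occur even without a link, so this count does not set the genes apart. The counts beside Gzmb below rest on the same cells.

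Within BMCPs the receptors were set beside Gzmb, which 60 cells held at 100 CPM or more and 33 did not. Il6ra at 100 CPM or more was found in 0 of the 60 cells with Gzmb, with a limit of 5% by 3 cells, and in 9 of the 33 others (27.3%, 13.3 to 45.5). A read of Il6ra was found in 12 of the 60, at no more than 2.70 CPM, and in 12 of the 33. All 19 BMCPs with Il6 were among the 60. Without BMCPs 46 and 80, which lie in the other set, 8 of 31 cells held Il6ra (25.8%).

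Csf2rb2 went the other way. It reached 100 CPM in 25 of the 60 cells with Gzmb (41.7%, 29.1 to 55.1) and in 5 of the 33 others (15.2%, 5.11 to 31.9). Its pooled level was 329 and 49.4 CPM in these sets. Csf2rb had 457 and 145 CPM, with 33 (55%, 41.6 to 67.9) and 12 (36.4%, 20.4 to 54.9) cells. Il4ra had 206 and 113 CPM with 19 and 9 cells, and Kit had 1307 and 856 CPM with 55 and 31 cells. Il2rg, at 964 and 941 CPM, and Il1rl1, at 713 and 764 CPM, were close. Without BMCPs 46 and 80 the cells below 100 CPM of Gzmb had 52.9 CPM of Csf2rb2, 156 of Csf2rb, 121 of Il4ra and 917 of Kit. The 3 BMCPs with Il9r other than number 80 were all among the 60. The thresholds of 100 CPM for Gzmb and 1000 CPM for Mcpt4 come from earlier results of these data. Split by Mcpt4, a chymase of mature connective tissue mast cells, 6 of 34 BMCPs with at least 1000 CPM held Il6ra (17.6%, 6.76 to 34.5) against 3 of 59 others (5.08%, 1.06 to 14.2), or 2 of 57 without BMCPs 46 and 80. Csf2rb2 was held by 7 (20.6%, 8.70 to 37.9) and 23 (38.98%, 26.6 to 52.6), and Il1rl1 by 31 and 43.

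**Figure D3:**
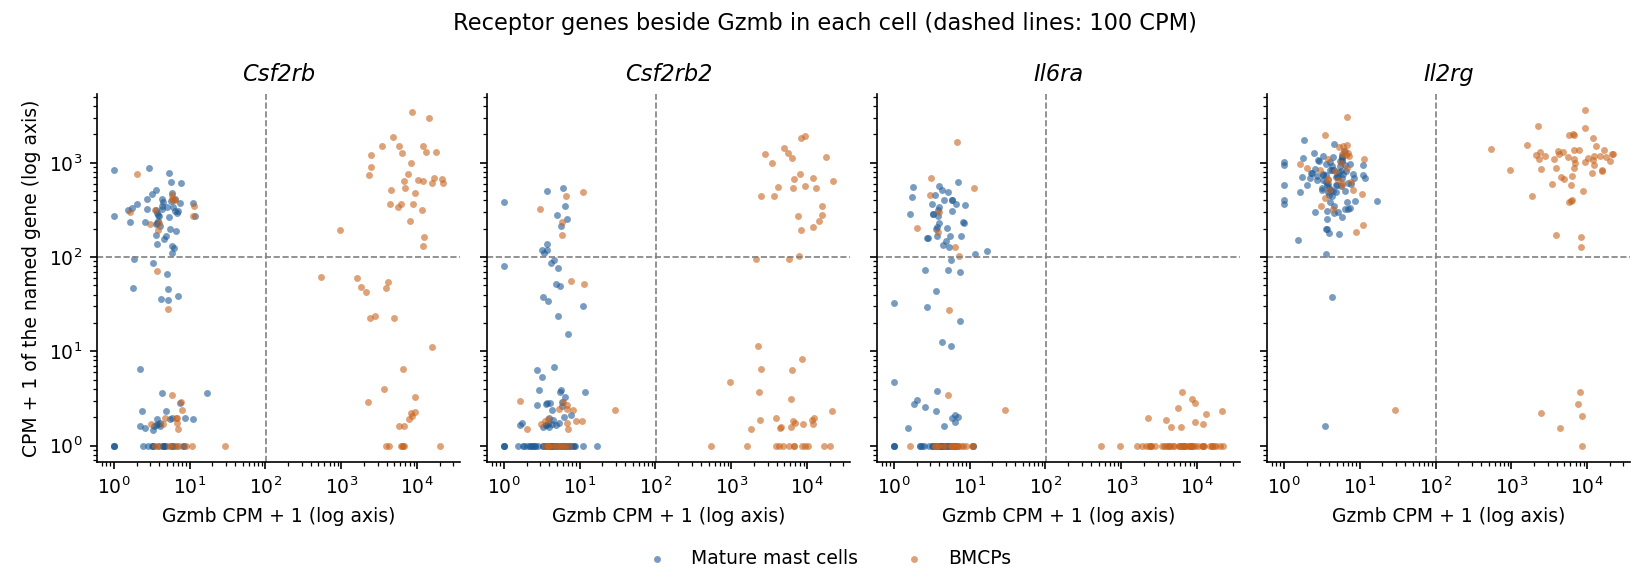
Gzmb (x axis) against Csf2rb, Csf2rb2, Il6ra and Il2rg (y axes) in each cell, in CPM + 1 on log scales, with blue points for mature cells, orange for BMCPs and dashed lines at 100 CPM. No mature cell reaches 100 CPM of Gzmb. Among BMCPs, 0 of the 9 cells with at least 100 CPM of Il6ra and 25 of the 30 with Csf2rb2 lie above that level, and Il2rg is high on both sides.

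Chains of a receptor were then counted in the same cell at 100 CPM or more. Il3ra and Csf2rb occurred together in 30 of 94 mature cells (31.9%, 22.7 to 42.3) and 23 of 93 BMCPs (24.7%, 16.4 to 34.8). Il3ra with Csf2rb2 was found in 5 (5.32%, 1.75 to 11.98) and 14 cells (15.1%, 8.48 to 23.97). Il3ra with at least one of the beta chains was found in 32 (34.04%, 24.6 to 44.5) and 27 (29.03%, 20.1 to 39.4). Nearly every cell with Il4ra also held Il2rg, in 30 of 31 mature cells and 27 of 28 BMCPs, and so did all 2 and 4 cells with Il9r. Il2rg itself was found in 97.9% and 92.5% of all cells. Across cells, log2(CPM + 1) of Il3ra and Csf2rb had a Pearson r of 0.02 in mature cells and 0.08 in BMCPs (n = 94 and 93). These cells share animals and a sequencing lane, and the correlations are weak.

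**Figure D4:**
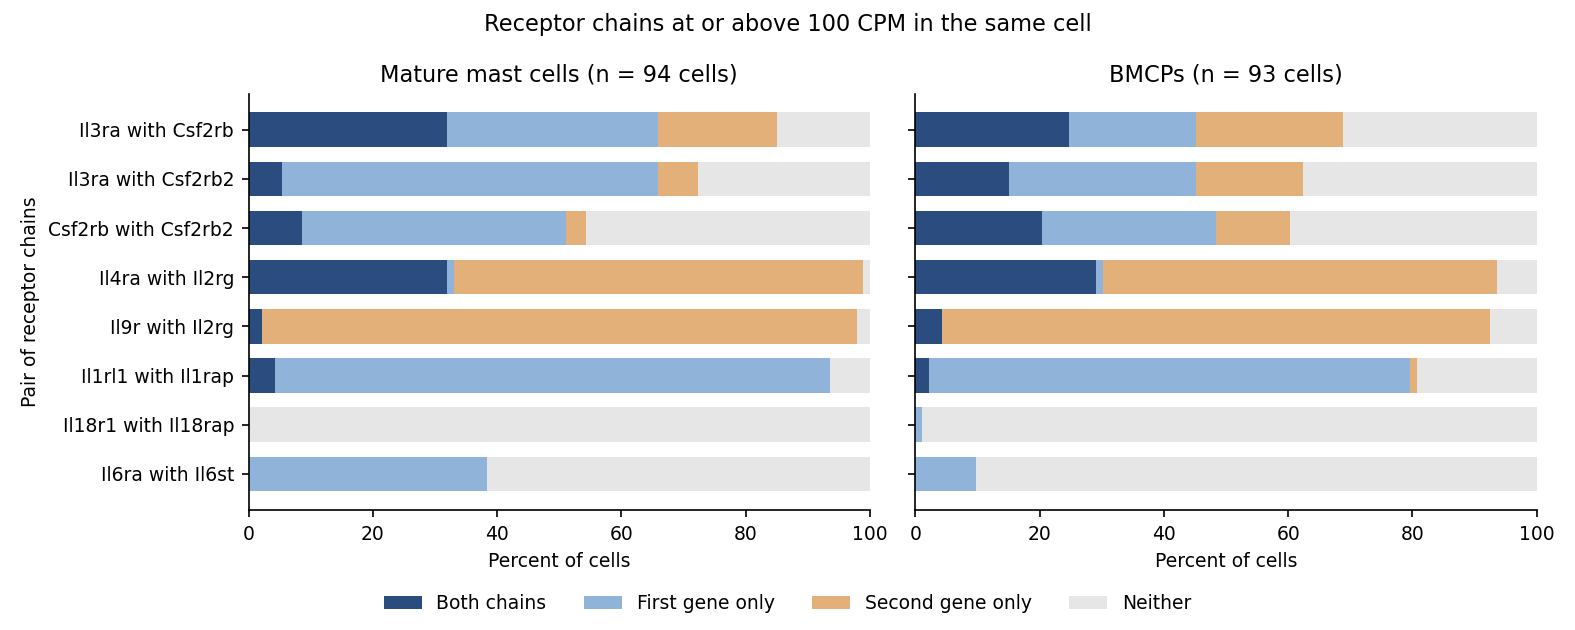
Percent of cells (x axis) with both chains of a pair at 100 CPM or more, with the first only, the second only or neither, stacked for each pair (rows) in mature cells and in BMCPs. Il3ra with Csf2rb fills 31.9% and 24.7%, and the bars of Il6ra with Il6st hold Il6ra alone.

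Kit, Il1rl1 and Il2rg were the common core. All 3 reached 100 CPM in 85 of 94 mature cells (90.4%, 82.6 to 95.5) and in 67 of 93 BMCPs (72.0%, 61.8 to 80.9). A mature mast cell held a median of 5 of the 10 genes at that level (2 to 7), and a BMCP a median of 4 (0 to 7).

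Levels of different genes were compared roughly, per kilobase of merged exon. Il2rg was highest in both groups, at 276 reads per kilobase and 1e6 reads in mature cells and 400.3 in BMCPs. Kit followed at 110.0 and 128, and Il1rl1 at 81.4 and 106. The order then differed. In mature cells it was Il3ra (56.3), Csf2rb (22.4), Il4ra (20.7), Il6ra (13.9) and Csf2rb2 (7.42). In BMCPs Csf2rb2 (48.1) and Csf2rb (47.3) had overlapping counting intervals and stood above Il3ra (41.5), Il4ra (28.7) and Il6ra (6.71). Il9r (0.78 and 3.96) and Il18r1 (0.25 and 0.30) were last in both groups. Neighbours in the order other than Csf2rb2 and Csf2rb had separate counting intervals, but the spread between animals is not known. The length merges all annotated exons of a gene, not those of the transcripts expressed. How reads from words shared with other genes were counted is also not known, so the order of genes at close levels is uncertain.

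ERCC scaling, which relates reads to the added spike-in RNA, shifted the ratios of all genes towards mature cells. The median cell had 939 gene reads per ERCC read among mature cells and 562 among BMCPs. Under it the median log2 ratio of all genes was 0.68, 33.4% of genes were at least 2-fold higher in mature cells and 8.09% in BMCPs, and the median of the receptor genes was 0.44. A scaling applies 1 factor per group and so shifts all genes with clear levels nearly alike. Relative to the median of all genes, between gene-read and ERCC scaling Kit went from 0.03 to 0.01, Il3ra from 0.69 to 0.67, Csf2rb from -0.82 to -0.84, Csf2rb2 from -2.41 to -2.45 and Il6ra from 1.29 to 1.27. Il9r went from -1.83 to -1.99 and Il18r1 from 0.10 to -0.26, both at low levels.

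**Figure D5:**
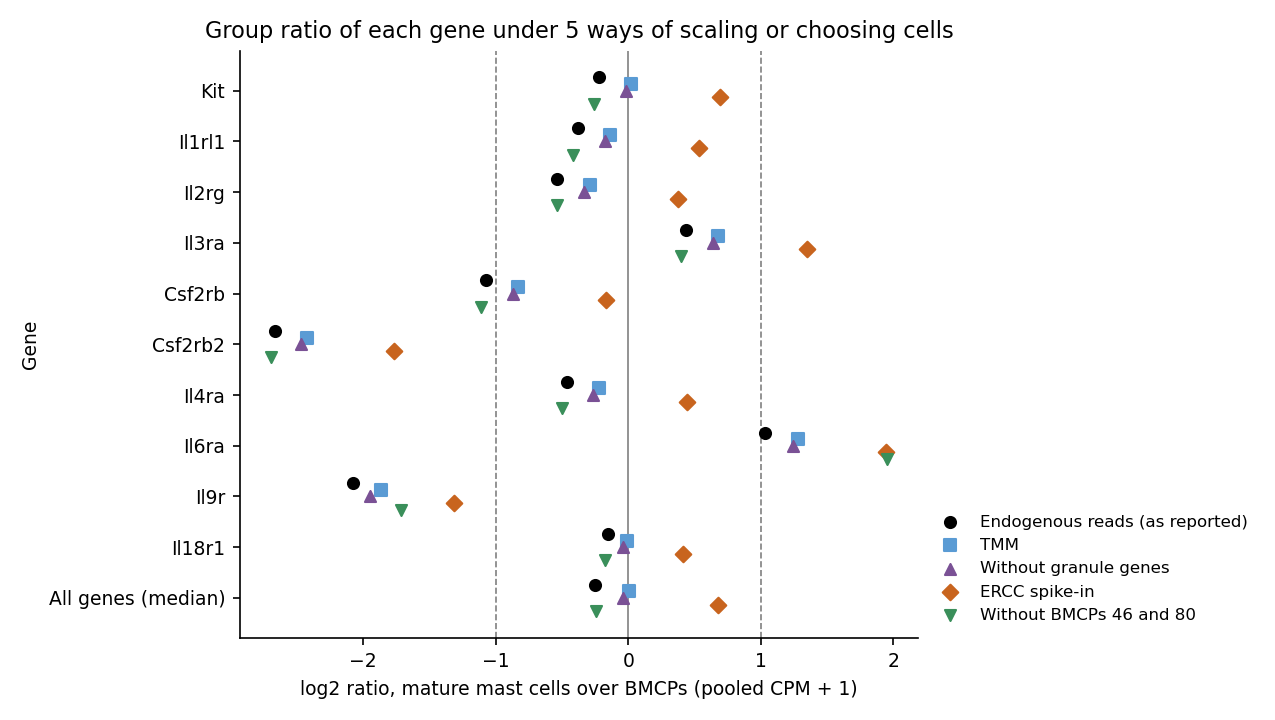
Log2 ratio of mature cells over BMCPs for each gene (1 row a gene, the median of all genes last) with gene-read totals, TMM scaling, totals without granule genes, ERCC scaling and without BMCPs 46 and 80. Dashed lines mark 2-fold. Kit, Il1rl1, Il4ra, Il2rg and the nearly absent Il18r1 cross 0 under ERCC scaling, and Kit also does so under TMM scaling. Csf2rb2 stays lowest and Il6ra stays above 0 in all 5.

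Lists of other genes of these pathways were counted in the same way. Together 88 of 122 genes passed 5 CPM, of which 17 (19.3%) were at least 2-fold higher in BMCPs and 6 (6.82%) in mature cells, against 19.2% and 9.9% of all genes. The median was -0.16. Of the 17, 7 stayed past 2-fold without the BMCP holding most of their reads, and all 6 of the other direction did so without the mature cell holding most. Without BMCPs 46 and 80, 17 of the same 88 genes were past 2-fold in BMCPs and 7 in mature cells.

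Other cytokine receptors passed in 20 of 41 cases, with 2 higher in mature cells, 5 higher in BMCPs and a median of -0.30. Il5ra, the IL-5 alpha chain, was at 15.5 CPM in mature cells and 4.37 in BMCPs (log2 ratio 1.62), and Epor, the erythropoietin receptor, at 24.6 and 8.43 CPM (1.44). Each was read in 4 BMCPs only, against 22 and 19 mature cells. Il17ra, a receptor chain for IL-17, was at 50.0 and 214 CPM (-2.08), with 16 and 32 cells past 100 CPM. Besides Il17ra, Csf2ra and Il1r2, the genes higher in BMCPs were Il21r and Il12rb2, named after their values were seen. Il21r rested mostly on the wells rich in B cell genes, with a ratio of -4.75 that was -1.97 without BMCPs 46 and 80, and Il12rb2 was -0.93 without its top BMCP. The most abundant were Il10rb (0.28) and Ifnar2 (0.42), chains of the IL-10 and type I interferon receptors.

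Downstream of Kit, 29 of 30 genes passed, 1 higher in mature cells (Sos1) and 5 higher in BMCPs, with a median of -0.10. The phosphatases Ptpn6 (-0.21) and Inpp5d (-0.32) were the most abundant. Those higher in BMCPs were Pik3cd, Hras, Nras, Gab2 and Src. Pik3cd fell short of 2-fold without BMCP 51 (-0.46), as did Hras without BMCP 73 (-0.85) and Nras without BMCP 49 (-0.94). Src turned from -1.26 to 0.23 without BMCP 95. Plcg2, which cuts membrane lipids in signalling, went from 0.88 to 1.42 without BMCPs 46 and 80. Sos1, Gab2, Src and Plcg2 were named after their values were seen.

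Of the 11 Janus kinase and STAT genes, all passed and the median was -0.10. With all kept cells, Stat5a alone differed by 2-fold, with 23.8 CPM in mature cells (22.9 to 24.7) and 94.9 CPM among BMCPs (93.2 to 96.7), for a log2 ratio of -1.95. It acts below the beta chain receptors and Kit. Stat5b, chosen after its value was seen, was at -0.97, and at -1.001 and so just past 2-fold without BMCPs 46 and 80. At least 100 CPM of Stat5a was found in 9 mature cells and 21 BMCPs, and of Stat5b in 10 and 20. Jak1 (-0.10) and Stat6 (-0.41), which acts below Il4ra, were the most abundant. The IL-1 family list passed in 15 of 15 cases with a median of -0.01 and 1 gene each way, Tab1 and Map3k7, both named after their values were seen. Map3k7 was -0.61 without its top BMCP. Nfkb1 had a ratio of -0.83 and Rela -0.79.

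Among feedback and target genes, 10 of 12 passed with a median of -0.48. Bcl2, which blocks cell death, was at 92.9 CPM in mature cells (91.2 to 94.7) and 29.9 CPM among BMCPs (28.97 to 30.9), for a log2 ratio of 1.60, with 33 and 12 cells past 100 CPM. Higher in BMCPs were Pim1 (-1.91), a kinase induced by cytokines, Mcl1 (-1.16), another survival gene, Osm (-1.18) and Bcl2l11, the last named after its value was seen. Pim1 was low, at 1.09 CPM in mature cells and 6.84 CPM in BMCPs, with 0 and 2 cells at 100 CPM or more. Mcl1 was -0.88 without BMCP 46 and -0.76 without BMCPs 46 and 80, Osm -0.74 without BMCP 26 and Bcl2l11 -0.52 without its top BMCP, all short of 2-fold, and Pim1 was -1.19 without BMCP 52. Socs2 (-0.34) and Ccnd2 (-0.63) were the most abundant. Of 13 ligand genes only Il4, Il6 and Il18 passed. Il4 was at 71.6 and 118 CPM (-0.71), Il6 had a ratio of -4.24, and Il18, named after its value was seen, was higher in mature cells.

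Likeness across cells was weak. It was computed for the 7 genes read in at least 50% of both groups' cells, against 2142 genes, as the smaller of the Pearson r within mature cells and within BMCPs. The nearest gene was Tspan4 for Il1rl1 (0.33), Nucb1 for Il2rg (0.31), Gm6263 for Csf2rb (0.27), Laptm5 for Il3ra and Gm1840 for Il4ra (0.25 each), Vps39 for Kit (0.23) and Csf2rb for Csf2rb2 (0.23). The points share library preparation and a sequencing lane.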

How the data were processed

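Poly(A) RNA of single cells sorted into 2 plates of 96 wells was amplified with 23 PCR cycles, per the labels' protocols, with ERCC spike-in RNA and no molecular identifiers. Libraries were sequenced in 1 lane as 50-base single-end reads. The deposited values are raw read counts per gene. GSNAP, HTSeq (0.5.3p3) and mm10 are named in the submitters' processing notes. The annotation release, strand setting and counting mode are not given in the sources used here. HTSeq summary rows and ERCC rows were kept out of totals.

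Cells with at least 100000 gene reads were kept. Labels tie no cell to an animal. Each group was therefore 1 pooled sample, and no test was made. Counts were summed per group, scaled to CPM and compared as log2 of CPM + 1 (Python 3.11.15, pandas 2.3.3, scipy 1.17.1). TMM factors came from edgeR 4.0.16. A difference was counted from 2-fold among genes that reached 5 CPM pooled in a group. The computation of the log2 ratio was checked on simulated counts with set folds and Poisson error only. Variation between cells and PCR copies were not simulated, so the check does not bear on how reliable the ratios of these data are. Doublets were not called. Each of the counts is limited by counting error: 3 reads of a group equal 0.0252 CPM (mature) and 0.0251 CPM (BMCPs).

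Symbols and coordinates came from GENCODE M21 (GRCm38) and promoter windows from RefSeq (GRCm38.p6). Genes and lists were chosen with earlier results of these data known. Named genes are the 10 receptor genes, their partners and neighbours, list genes with a 2-fold difference and a read in at least 20% of the higher group's cells, the 2 most abundant genes of each list, and the 3 genes most like each receptor gene, of which the nearest is given. Alternatives were other scalings, the mean or median over cells, added constants of 0.1 and 5 CPM, other cell filters, leaving out cells, other thresholds for counting a cell and, chosen after seeing the data, leaving out BMCPs 46 and 80, ERCC scaling without BMCP 55, and the blocks of lower and of higher cell numbers.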

Additional observations from a re-analysis of the deposited data

Results flagged for a closer look

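BMCP number 93, left out for its 36972 gene reads, still held receptor reads: 43 of Kit, 4 of Il1rl1, 16 of Csf2rb and 20 of Il2rg. It was picked out because reads appeared in a library left out of the main comparisons, each count above the 3 reads that a count of 0 allows. No other result met a criterion for a closer look, since each group is 1 pooled sample.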

How the results depend on the processing

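The median log2 ratio of the receptor genes was -0.47 with gene-read totals. It was -0.22 with TMM scaling, -0.26 with totals without granule genes and -0.047 by the median over cells, and it turned to 0.44 with ERCC scaling and 0.23 with ERCC scaling without BMCP 55. The medians of all genes were then 0.0038, -0.04, 0.46, 0.68 and 0.48. TMM scaling put 13.4% of all genes at least 2-fold higher in mature cells and 14.2% in BMCPs. Against 1 receptor gene at least 2-fold higher in mature cells, there were 2 with ERCC scaling, 2 with ERCC scaling without BMCP 55, 0 with 5 CPM added and 0 in the block of lower cell numbers. Against 3 higher in BMCPs, there were 2 with TMM, with ERCC scaling, with totals without granule genes, with ERCC scaling without BMCP 55 and in the block of higher cell numbers. The median over cells gave 0, with 5 of the genes past the minimum.

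Signs turned for single genes. Kit had 0.023 with TMM, 0.69 with ERCC scaling and 0.48 with ERCC scaling without BMCP 55. With the latter 2 settings Il1rl1 had 0.53 and 0.32, Il4ra 0.44 and 0.23, Il2rg 0.37 and 0.16, and Il18r1 0.41 and 0.27. By the median over cells Csf2rb had 0.96 and Il4ra 0.018. Il18r1 had 0.21 in the block of lower cell numbers and 0.54 without BMCP 31, which held most of its BMCP reads. The cause was not tested. Among the values of single genes under the alternatives, without counting a left-out cell again, 51 moved by less than the counting interval, 84 moved by more without a change of sign and 15 changed sign. Of the counts of chain pairs at lower thresholds, 16 stayed within their interval and 16 did not. No paired analysis was possible because the numbers in the labels only name cells, each group is 1 pooled sample and no test was made. Depth limits a count of 0 to 3 reads of a group's total.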
